A study of Danio rerio with 4 samples.

Results

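The genes described here are runx1, myb, lmo2, tal1, gata2a and fli1, 6 transcriptional regulators that blood stem and progenitor cells depend on, out of 8793 genes measured. They were chosen by gene symbol, and the 7 probe sets annotated to those symbols were all used, 1 for each gene and 2 for fli1. None of these probe sets was annotated to a further gene. Expression was measured on 4 Affymetrix arrays in sorted cells from the kidney of adult zebrafish, which is this fish's blood-forming organ and its counterpart of mammalian bone marrow. The zSP cells were the side population, which stains dimly with the DNA dye Hoechst because it exports the dye, and the zMP cells were the brighter main population. Both came from the same low-scatter lymphoid gate of the same fish, for which the sources used here name no treatment, strain or genotype. Material from 20 fish, sorted in 3 experiments, was combined into 1 RNA pool per population, and each pool was measured on 2 arrays, zSP replicates 1 and 2 and zMP replicates 1 and 2. The spread between the arrays of a pool is therefore technical, and no difference below has a biological replicate or a p-value.

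In vertebrate embryos, Runx1 is needed for blood stem cells to form from the endothelium of the aorta, and Myb is needed for those cells to persist. Tal1, a basic helix-loop-helix protein, and Lmo2, a LIM-domain protein that bridges other factors without binding DNA itself, work in a complex with Ldb1, an E protein and a GATA factor. Gata2 is the GATA factor of stem and early progenitor cells. Fli1 belongs to the Ets family and is found in endothelium, stem cells and platelet-forming cells, and in mouse blood progenitors Gata2, Tal1 and Fli1 bind at each other's enhancers.

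Values are the authors' deposited RMA values on the log2 scale, in which 1 unit is 2-fold. A difference is zSP mean minus zMP mean, and in parentheses after it stand the lowest and highest of the 4 differences that single pairs of arrays gave. A gene was called when all 4 differences were at least 2-fold in the same direction. The files hold no detection calls, so levels were set against 49 blank control probe sets for sequences that zebrafish cells do not transcribe. The highest group mean among them, 6.15, belonged to the EGFP reporter control in zMP and was taken as the top of the blank range. The next control lay at 5.24. A mean within the range leaves the presence of the transcript unshown.

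Of the 6 genes, gata2a was the single one called, and it was higher in zSP. No member was called lower. Over all genes, 7.85% were called higher in zSP and 2.89% lower, so that 1 member of 6 is not read as a result about the group. The median difference of the members was -0.03 (-0.34 to 0.10 for the medians of single pairs of arrays), beside -0.20 for all genes and -0.38 for the blank controls. For runx1, myb and lmo2 every zSP array lay below every zMP array, as it did for 41% of all genes. For gata2a and tal1 every zSP array lay above every zMP array, as it did for 21.7% of all genes. A mean above the blank range in at least 1 pool was found for gata2a, lmo2, fli1 and myb, and for neither runx1 nor tal1. Among all genes 33.2% had such a mean.

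**Figure D1:**
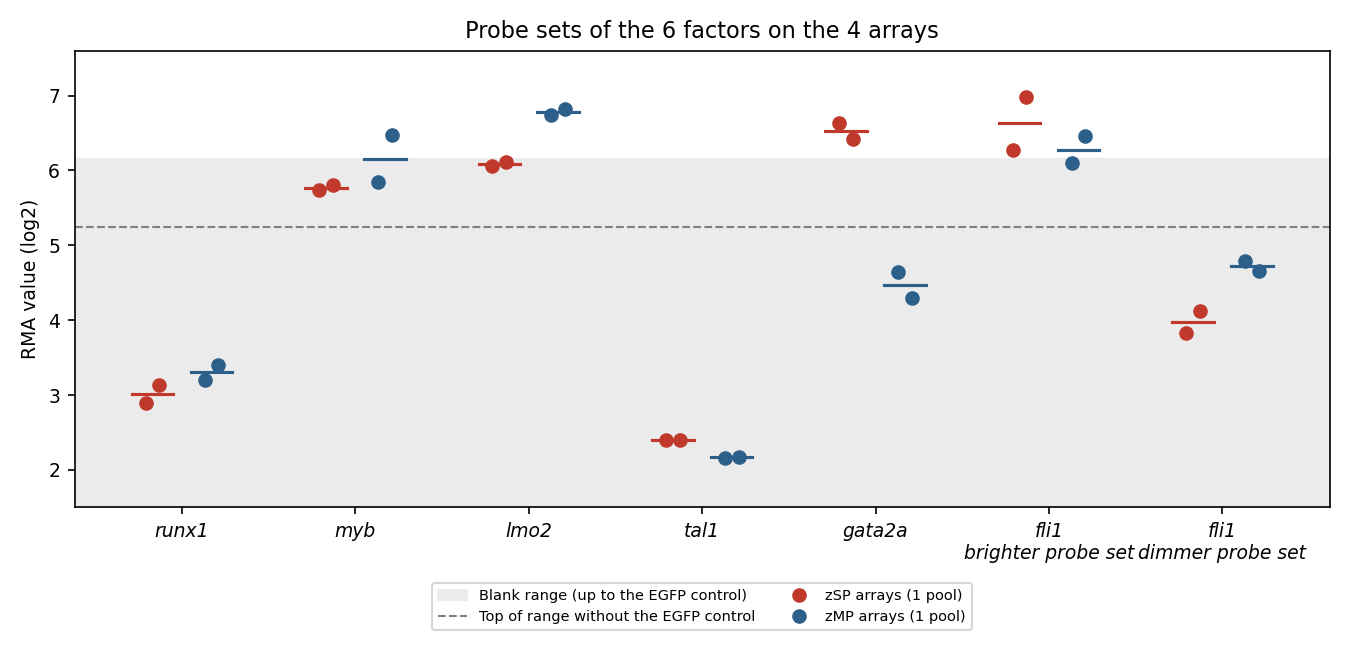
RMA values (log2, vertical axis) of the 7 probe sets on each of the 4 arrays, with zSP in red to the left and zMP in blue to the right, short bars at the group means, grey shading up to 6.15 for the blank range and a dashed line at 5.24 for its top without the EGFP control. The gata2a values stand above the shading in zSP and within it in zMP, those of lmo2 stand above it in zMP, and those of runx1 and tal1 lie low within it in both pools.

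The pools also differed in other respects on these arrays. Across 15502 probe sets, a correlation over transcripts and not over replicates, Pearson's r was 0.868 to 0.875 between pools, while the paired zSP arrays reached 0.943 and the paired zMP arrays 0.952. The 3′ probe set of the GAPDH control exceeded its 5′ probe set by 3.94 in zSP and 3.09 in zMP, a sign of how far the labelled copies reach. Of 8 leukocyte markers measured, 7 were above the blank range on average in each pool, so that leukocyte transcripts were present in both. Of the 8, 3 were called lower in zSP, beside 2.89% of all genes, with a list median of -1.18. The linear values summed over this list came to 12.17 and 12.20 on the log2 scale in zSP, and 13.24 and 13.37 in zMP. All 8 epithelial markers were called higher in zSP, beside 7.85% of all genes. Their summed levels were 13.43 on both zSP arrays, against 7.71 and 7.70 in zMP. The marker lists were chosen with earlier results of these data known, so their counts are no independent evidence. In material from many cells, fewer cells of a type and less RNA per cell cannot be told apart, and this holds for every difference below.

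The zebrafish gene gata2a, with the NCBI gene identifier 30480, shares its mammalian counterpart Gata2 with gata2b. Mammalian Gata2 maintains blood stem cells and also marks endothelium and mast cell precursors. These data do not show which of those roles gata2a has. The gata2a probe set read 6.64 and 6.42 in zSP, against 4.64 and 4.30 in zMP. Both zSP arrays stood well above both zMP arrays, and the groups did not overlap. The difference was 2.06 (1.78 to 2.34), a 4.17-fold ratio on the linear scale, and 457 of the 8793 genes, 5.2%, had a difference as large or larger towards zSP. No blank control reached the gata2a value on either zSP array, whereas 8 and 10 of the 49 did on zMP replicates 1 and 2. The zMP mean of 4.47 lay within the blank range also with its top at 5.24, so that the ratio stands against background and the transcript was not shown to be present in zMP. Its mean over the 4 arrays, 5.50, was likewise within the range, and a filter on that mean removed gata2a from the comparison. At a size of 3-fold gata2a was still called, together with 4.5% of all genes.

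The other GATA genes did not show this difference by the same rule. The list of paralogs held 5 measured GATA genes, none called and none with a mean past the blank range. Among all genes 33.2% had such a mean, 7.85% were called higher in zSP and 2.89% lower. The erythroid factor gata1a read 3.69 and 4.75 in zSP, against 2.93 and 3.13 in zMP, a difference of 1.19 (0.57 to 1.82). The T cell factor gata3 differed by -0.10 (-0.22 to 0.03), with overlapping groups. The remaining 3 were gata4 at -0.38, gata5 at 0.67 and gata6 at 0.54, where gata5 read 5.20 and 3.18 on the zSP arrays and overlapped zMP. The second zebrafish gata2 gene, gata2b, was not analysed here.

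Markers of other cell types were measured on the same arrays, where 7.85% of all genes were called higher in zSP and 2.89% lower. Of 5 endothelial markers measured, the VEGF receptor kdrl was called higher in zSP at 2.64 (1.51 to 3.76), and flt4, plvapb, tek and tie1 were not called. All 5 had both means within the blank range, and the summed endothelial levels were 6.49 and 7.33 in zSP, against 6.18 and 6.12 in zMP. Among 6 myeloid markers, the macrophage receptor marco, the neutrophil peroxidase mpx and the metalloproteinase mmp9 were called higher in zSP, while lyz at -0.40 (-0.64 to -0.15), csf1ra at -0.35 (-0.47 to -0.22) and cpa5, whose groups overlapped, were not called. The summed myeloid levels were 11.26 and 11.49 in zSP, against 10.95 and 10.94 in zMP. Of 6 stromal markers, 4 were called higher in zSP, while col1a1a at 1.77 (0.86 to 2.68) and fn1a at -0.32 (-0.49 to -0.16) were not called. Among those called, col1a2 and postnb had both means within the blank range, though their zSP means of 5.52 and 6.11 were above 5.24. The summed stromal levels were 11.58 and 11.31 in zSP, against 6.70 and 7.32 in zMP. Of 5 thrombocyte markers, fn1b and thbs1b were called higher in zSP, at 2.56 and 2.60, and 3 were not called. Lower in zSP on every pair were f5 at -0.43 (-0.63 to -0.23) and gp1bb at -0.19 (-0.30 to -0.09). The groups of itga2b overlapped at 0.17. Both thbs1b means lay within the blank range. The summed thrombocyte levels were 8.72 and 8.35 in zSP, against 7.71 and 7.49 in zMP. Of 9 erythroid markers, the globin gene hbaa1 was called lower in zSP at -4.24, and 8 were not called. Every zSP array lay below every zMP array for 5 of the 9, beside 41% of all genes. For 2 every zSP array lay above, beside 21.7% of all genes. These were tspo at 1.34 (0.94 to 1.75) and blvrb at 0.70 (0.47 to 0.93). The summed erythroid levels were 8.60 and 8.96 in zSP, against 8.90 and 9.19 in zMP. The largest level in these sums was tspo on the zSP arrays, at 8.05 and 8.56, and hbaa1 on the zMP arrays, at 7.97 and 8.24. The epithelial markers, given above, were all 8 called higher in zSP, with a list median of 6.05. The part of any of these markers in the gata2a difference was not tested.

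The bridging protein gene lmo2, with the identifier 30332, showed a small difference with little spread. It read 6.06 and 6.11 in zSP, against 6.74 and 6.82 in zMP. The gap between arrays was 0.06 in zSP and 0.08 in zMP, and the groups did not overlap. The difference was -0.70 (-0.77 to -0.63), so that zMP was 1.62-fold higher on the RMA scale, short of the 2-fold size. The blank controls themselves differed by -0.38 in the median, and lmo2 stood -0.32 from that shift. Above their median lmo2 lay 3.53 and 3.62 in zSP, against 3.92 and 3.90 in zMP, and the groups did not overlap there either. Those medians read 2.50 to 2.92, far below lmo2, and their shift need not hold at its level. The lmo2 difference was -0.62 when median centred, -0.94 after quantile normalization and -0.64 after cyclic loess. At a size of 1.5-fold lmo2 would be called lower in zSP, together with 9.66% of all genes. No blank control reached lmo2 on any array, but its zSP mean of 6.09 lay within the range set by the EGFP control and its zMP mean of 6.78 above it. With the top of the range at 5.24 both means were above. On the same arrays 3 of the 8 leukocyte markers were called lower in zSP, beside 2.89% of all genes. Among the others, ncf1 stood at 0.34 (0.09 to 0.59) and the groups of lcp2a overlapped. Their part in the lmo2 difference was not tested.

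Of the 4 measured paralogs of lmo2, none was called and none had a mean above the blank range. Among all genes 33.2% had such a mean, 7.85% were called higher in zSP and 2.89% lower. The differences were 0.29 for lmo1, 0.62 for lmo3, -0.03 for lmo4a and 0.45 for lmo4b. In all 4 the groups overlapped. For lmo1 the zSP arrays differed most, at 4.48 and 6.18, against 5.06 and 5.02 in zMP. With the top of the range at 5.24 the lmo1 zSP mean of 5.33 was above.

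The basic helix-loop-helix gene tal1 was near the floor of the arrays. Its probe set (gene identifier 30766) read 2.40 on both zSP arrays, against 2.16 and 2.18 in zMP. The groups did not overlap, and the difference was 0.23 (0.23 to 0.24), the narrowest range among the 7 probe sets. On the zSP arrays 26 and 29 of the 49 blank controls were at or above tal1, and on the zMP arrays 44 and 41 were. Every array read below the median of its blank controls, with tal1 minus that median at -0.13 and -0.09 in zSP, against -0.66 and -0.75 in zMP. The narrow range thus describes how alike readings low within the blank range were on the arrays of a pool. The blank controls themselves differed by -0.38 in the median, and the highest of their differences was 0.13. The tal1 difference thus went against theirs, and the cause was not tested. Presence of the transcript remains unshown in either pool. The paralogs tal2 and lyl1 were not analysed here.

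Proteins that assemble with Tal1 and Lmo2 or with Runx1 were taken from a list of 25, of which 14 were measured, some of them paralogs too. None was called, beside 7.85% of all genes called higher in zSP and 2.89% lower, and the median difference was 0.09. The blank range was passed in either pool by 3, beside 33.2% of all genes. The largest differences belonged to the E protein gene tcf12 at -1.36 (-2.15 to -0.57) and the acetyltransferase gene crebbpa at 1.28 (0.36 to 2.21). Both were within the blank range in both pools. With the top of the range at 5.24, the tcf12 zMP mean of 6.11 and the crebbpa zSP mean of 5.88 were above. Outside the naming rule, and picked for their place in the complex, the adaptor genes ldb1a and ldb1b stood at 0.38 (-0.55 to 1.31) and -0.59 (-0.73 to -0.45). The Runx partner gene cbfb read 3.47 and 3.58 in zSP, against 3.69 and 4.15 in zMP, a difference of -0.39 within the blank range.

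The stem cell emergence factor runx1 was not shown to be present in either pool. Its probe set (gene identifier 58126) read 2.90 and 3.14 in zSP, against 3.21 and 3.41 in zMP. The zSP arrays were lower without overlap, with a difference of -0.29 (-0.51 to -0.07). On the zSP arrays 17 and 14 of the 49 blank controls were at or above runx1, and on the zMP arrays 18 and 17 were. The blank controls themselves differed by -0.38 in the median, with 48 of 49 lower in zSP, and runx1 lay 0.37 and 0.64 above their median in zSP, against 0.39 and 0.48 in zMP. Set against the blank controls, the groups overlapped.

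Among its paralogs, runx3, a factor of T and NK cells in mammals, had the largest absolute difference of the 20 measured paralogs. It read 4.44 and 5.71 in zSP, against 7.52 and 6.61 in zMP. Every zSP array lay below every zMP array, the difference was -1.99 (-3.08 to -0.89), and the call was missed by the pair with the smallest gap. The zMP mean of 7.06 was above the blank range and the zSP mean of 5.07 within it. The bone factor genes runx2a and runx2b differed by -0.24 and -0.87, and neither passed the blank range. With the top of the range at 5.24 the runx2a means, 5.37 in zSP and 5.61 in zMP, were above. Of 6 lymphoid markers measured, 2 were called lower in zSP, beside 2.89% of all genes. They were the T cell costimulatory gene cd28, with neither mean past the blank range, and the cytotoxic peptide gene nkl.4. The B cell kinase gene btk, above the range in both pools, stood at 0.72 (0.57 to 0.87) and was not called, and the summed lymphoid levels were 8.68 and 8.84 in zSP, against 9.96 and 9.91 in zMP. Their part in the runx3 difference was not tested.

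The progenitor factor myb lay at the edge of the blank range. Its probe set (gene identifier 30519) read 5.74 and 5.80 in zSP, against 5.85 and 6.47 in zMP. The groups did not overlap, but zMP replicate 1 lay next to the zSP arrays and zMP replicate 2 stood apart. The difference was -0.39 (-0.73 to -0.04), and it was -0.70 without zMP replicate 1 and -0.08 without zMP replicate 2. The blank controls themselves differed by -0.38 in the median. Above their median myb lay 3.20 and 3.31 in zSP, against 3.03 and 3.55 in zMP, so that set against them the groups overlapped. Those medians read 2.50 to 2.92, far below myb, and their shift need not hold at its level. The myb difference was -0.31 when median centred, -0.65 after quantile normalization and -0.33 after cyclic loess. The gap of 0.62 between the zMP arrays was larger than that of 74.8% of genes, whose median gap was 0.28. The zMP mean was 6.16, just past the top of the range, and the zSP mean was 5.77. With the EGFP control left out both were above, and 1 blank control reached myb on zMP replicate 1 and none on the others. The cell cycle paralogs mybl2a and mybl2b differed by -0.81 and -1.11 (-1.37 to -0.85) and mybl1 by 0.67, all within the blank range and none called.

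The Ets gene fli1, with the identifier 30619, gave opposite signs on its 2 probe sets. The brighter read 6.28 and 6.98 in zSP, against 6.10 and 6.46 in zMP. The groups overlapped, with a difference of 0.35 (-0.18 to 0.88), and the gap of 0.71 between the zSP arrays was larger than that of 73.4% of genes. The dimmer read 3.83 and 4.13 in zSP, against 4.80 and 4.66 in zMP. Here every zSP array was lower, the difference was -0.75 (-0.96 to -0.53), neither mean passed the blank range, and 6 to 9 blank controls were at or above it on each array. Averaged over both probe sets the difference was -0.20, and on the brighter one without zSP replicate 2 it was -0.0036, so that the data give no direction for fli1. Of the 7 probe sets the brighter one alone had both means above the blank range. Which of them measures the transcript better was not tested.

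The Ets paralogs of fli1 went both ways. None of the 5 measured was called, beside 7.85% of all genes called higher in zSP and 2.89% lower. The blank range was passed in either pool by 4, beside 33.2% of all genes. The close relative fli1rs read 6.38 and 5.74 in zSP, against 6.95 and 7.71 in zMP, a difference of -1.27 (-1.97 to -0.58). The lymphoid and endothelial factor ets1 read 4.44 and 5.40 in zSP, against 7.08 and 6.36 in zMP, a difference of -1.80 (-2.64 to -0.97), which missed the call on 1 pair. The repressor gene etv6, needed by blood stem cells in mouse, read 7.77 and 7.58 in zSP, against 6.79 and 6.64 in zMP. Its difference of 0.96 (0.79 to 1.12) was short of the size on some pairs. The values for ets2 and erg were -0.42 and -0.35. Over all 20 paralogs the median was -0.17, beside -0.20 for all genes. In 10 of them every zSP array lay below every zMP array, beside 41% of all genes, and in 3 above, beside 21.7%.

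The distribution of all genes shows where the members fall. Differences of 1635 genes, 18.6%, were at or below that of lmo2, and those of 2684 genes, 30.5%, were at or above that of tal1. For runx1 and myb 44.3% and 37.5% of genes had a difference as low or lower. For fli1 the share at or above its brighter probe set was 27.3%. The place of gata2a, given above, rests on a zMP mean within the blank range.

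**Figure D2:**
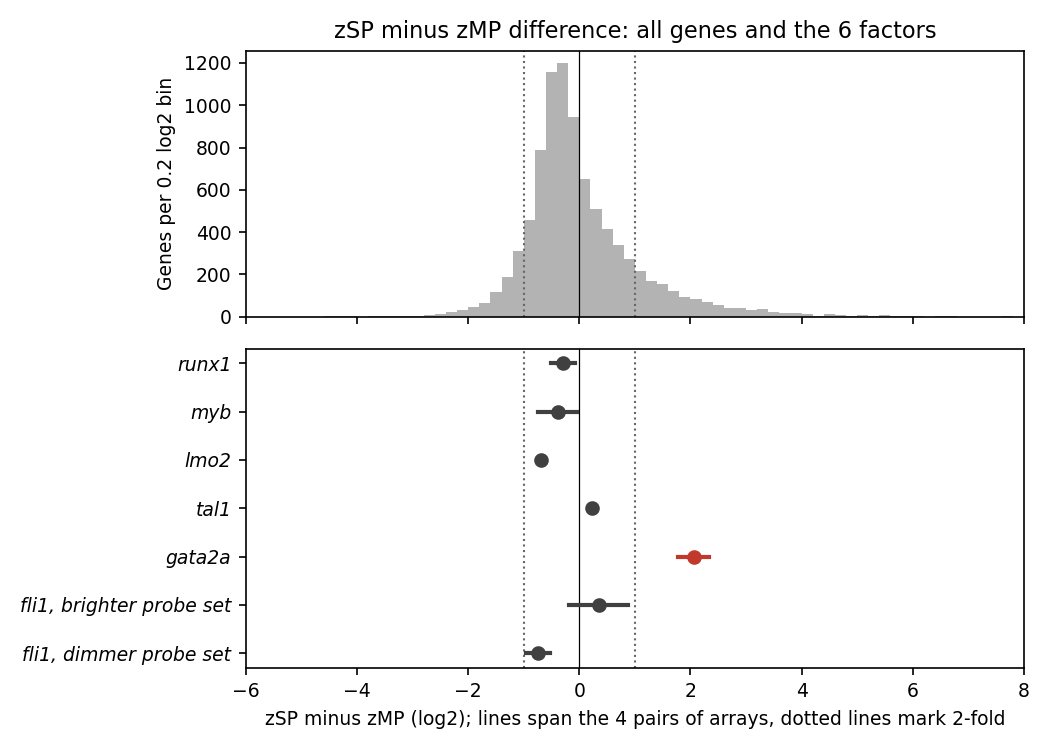
The upper panel counts all 8793 genes by their zSP minus zMP difference in bins of 0.2 log2, and the lower panel gives the 7 probe sets with lines spanning the 4 pairs of arrays and dotted lines at 2-fold. The gata2a line from 1.78 to 2.34 lies in the right tail, and the others lie between -0.96 and 0.88.

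Lineage factors that act beside or downstream of these 6 genes were described by a further list of 25, with 13 measured. The Myc gene mycb, a growth regulator, was the single member called, 1 of 13 or 7.69%, beside 7.85% of all genes called higher. It read 8.36 and 8.40 in zSP, against 6.41 and 5.55 in zMP, a difference of 2.41 (1.96 to 2.86). Its zMP mean of 5.98 lay within the range set by the EGFP control. With the top of the range at 5.24 both means were above. The list median was -0.01, and 6 members passed the blank range in either pool, beside 33.2% of all genes. The myeloid and stem cell factor spi1b, picked after its values were seen, read 8.35 and 8.39 in zSP, against 8.45 and 8.32 in zMP. Its groups overlapped at a difference of -0.01, well above the blank range. Also picked afterwards, the lymphoid factor ikzf1 differed by -1.85 (-2.99 to -0.71), and neither of its means passed the range. Its zMP mean of 5.55 was above 5.24. In 4 of the 13 every zSP array lay above every zMP array, beside 21.7% of all genes, and in 4 below, beside 41%. With both means above the blank range, cebpb was higher in zSP by 0.76 (0.68 to 0.85), and cebpa by 0.29 to 1.91 over the pairs. Lower in zSP, with both means also above it, were cebp1 at -0.53 (-0.62 to -0.43) and mych at -0.32 (-0.37 to -0.28). These genes were likewise picked after their values were seen.

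Of 25 receptors and surface genes of stem cells and endothelium, 12 were measured, with a median of -0.26. The single call was kdrl, given above, 1 of 12 or 8.33%, beside 7.85% of all genes called higher. Its means lay within the blank range, though the zSP mean of 5.83 was above 5.24. Outside the naming rule, the stem cell receptor kita read 4.71 and 3.09 in zSP, against 3.09 and 3.02 in zMP, all within the range. The chemokine receptor cxcr4a, with both means above the range, differed by -1.11 (-1.28 to -0.93) and missed the call on some pairs. The thrombocyte and progenitor integrin itga2b, also above it, read 7.11 and 7.37 in zSP, against 7.12 and 7.01 in zMP, and overlapped.

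The genes with the most similar profile were sought for the 4 members with a mean above the blank range. They were sought among 2795 other genes with such a mean, after clone and locus names were left out. Likeness was measured by the root mean square distance of centred log2 values over the 4 arrays. For gata2a the nearest genes were ip6k2b at 0.05, dag1 at 0.08 and tmem131 at 0.10, with differences of 2.08, 1.99 and 2.00. Of these genes, gata2a, dag1 and tmem131 passed the blank range through zSP alone. In zMP, dag1 read 4.38 and 3.97 and tmem131 read 6.11 and 5.71, within the range. For lmo2 they were trnau1apb, prps1a and bin2b, each at 0.02. For myb, lrmp, anp32a and chd4b were nearest, each at 0.07, and for fli1, cab39l and brms1 at 0.05 and pik3c2a at 0.06. The members lmo2 and myb passed the range through their zMP means alone. Nearest genes share a member's difference by the way likeness was measured. With 4 arrays from 2 pools, such closeness describes these arrays alone.

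The direction of the members was set against other ways to scale the arrays. Cyclic loess moved the median of all genes to 0.0041, against -0.20 as deposited, and there gata2a stood at 2.15, lmo2 at -0.64, tal1 at 0.41 and runx1 at -0.01. The call of gata2a was kept under all 9 alternatives of arrays, scaling and probe sets, with differences of 1.89 to 2.23. Leaving out an array could not undo it, since every pair was already past 2-fold. The probe set settings could not either, since gata2a has 1 probe set. Only the changes of scaling could, and they gave 2.13 when median centred, 1.93 after quantile normalization and 2.15 after cyclic loess. No other member was called under any of these 9. Among them, lmo2 ranged between -0.94 and -0.62 and myb between -0.70 and -0.08.

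**Figure D3:**
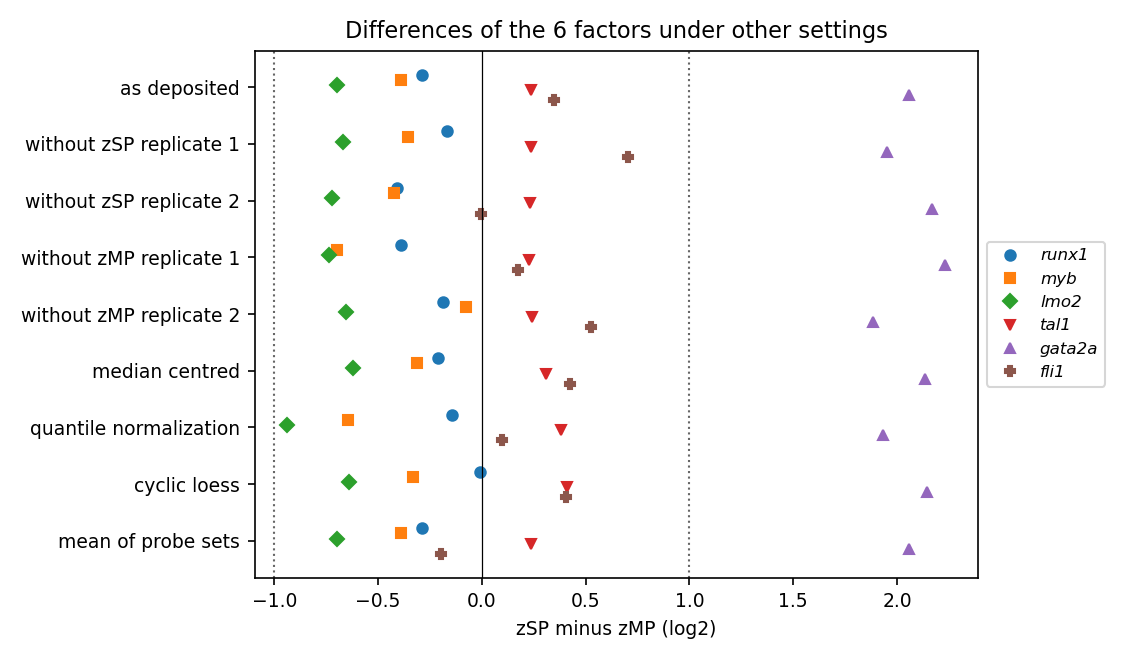
The zSP minus zMP difference (log2, horizontal axis) of the 6 factors as deposited and under 8 of the other settings, with a row for each setting and a symbol for each gene. The gata2a symbols lie between 1.89 and 2.23 in every row, and those of fli1 lie on both sides of 0.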

How the data were processed

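The authors deposited log2 expression values, used here as they stand. Per the submitters' processing notes they came from RMA and the affy package, with version and settings not given in the sources used here. Per the labels' protocols, amplification took 2 rounds of in vitro transcription, and such copies are shortened towards the 3′ end. The 4 columns were matched by sample. Of 15617 probe sets, 115 controls were left out, and 10795 of the others carried 1 gene in the platform annotation, with symbols updated through the RefSeq gene table (8723 of 8796 identifiers found). A gene was represented by its probe set with the highest mean. The blank controls were bacterial, tag and reporter probe sets, without the 18 for bioB, bioC, bioD and cre, which read at least 7.18 in zSP and 7.53 in zMP. That omission was made after their values were seen.

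Since each population is 1 pool, no test was made and 2-fold in all 4 pairs took its place. All members were described. From each list the called genes with the largest absolute differences, up to 4, or the 2 largest, were to be named. Paralogs are given by family and other genes as stated. The members and lists were chosen with earlier results of these data known. The counting was tested on simulated data. Python 3.11.15, pandas 2.3.3 and, for cyclic loess, limma 3.58.1 in R 4.3.3 were used. The alternatives left out each array, changed scaling, probe sets, size, rule or filter. The number of arrays limits the technical precision alone, and with 1 pool per population no biological spread was measured.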

Additional observations from a re-analysis of the deposited data

How the results depend on the processing

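No paired analysis was possible because each population is 1 RNA pool and the results come from no test. Among the members, the count called higher in zSP was 0 with the filter on low values, which left lmo2 and fli1 alone, and the count called lower was 1 at 1.5-fold. The median difference of the members was 0.20 after cyclic loess and -0.24 with probe sets averaged. The top of the blank range was 5.24 without the EGFP control and 5.08 as the 95th percentile. With 1 array left out, a call needs 2 pairs. Counts called higher in zSP were then 0 to 3 for partners, 0 to 2 for paralogs, 1 to 3 for lineage factors and 1 to 2 for surface genes, and counts called lower were 0 to 1 for partners, 1 to 3 for paralogs, 0 to 2 for lineage factors and 0 to 2 for surface genes. Counts of paralogs called lower were 2 after quantile normalization and 1 with probe sets averaged. At 1.5-fold, 1 paralog was called higher and 4 lower, 2 lineage factors higher and 1 lower, and 1 surface gene lower. By the difference of means alone, 3 partners were higher and 1 lower, 1 paralog higher and 4 lower, 4 lineage factors higher and 1 lower, and 1 surface gene lower. The surface gene count higher in zSP was 0 at 3-fold and with the filter. Over all genes, those called higher numbered 690, against 1017 at 1.5-fold, 1245 by means alone, 396 at 3-fold and 267 with the filter. Without zSP replicates 1 and 2 they numbered 1048 and 1097. Those called lower numbered 254, against 849 at 1.5-fold, 811 by means alone, 61 at 3-fold, 158 with the filter, 165 after cyclic loess and 532 to 591 with 1 array left out. The causes were not tested.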
